A study of Mus musculus with 7 samples.

Results

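The tubulins and the proteins that bind, cap, fold or cut microtubules were followed in injured mouse retina with and without added Tppp3. The set held 47 of the 25655 genes in the count table: the 17 rows named as alpha, beta or gamma tubulins by a numbered symbol, and 30 named genes for microtubule-associated proteins, end-binding proteins, stathmins, collapsin response mediator proteins, folding cofactors, severing enzymes and a deacetylase. Microtubules are hollow polymers of alpha and beta tubulin dimers that carry transport along axons and are rebuilt when an injured axon regrows. Alpha and beta tubulins are each encoded by several genes (isotypes), gamma tubulin starts new filaments, and the associated proteins set how stable a filament is and where it grows. Tppp3 belongs to the tubulin polymerization-promoting proteins, which bind and bundle microtubules.

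All mice were wild-type C57BL/6, and every retina was taken 2 days after crush of the optic nerve, the tract formed by ganglion cell axons. The control group received a control AAV2 vector, named in the labels as a CMV control, and the other group an AAV2 vector for overexpression of Tppp3. AAV2 is an adeno-associated virus that is often used to reach ganglion cells. There was no uninjured or uninfected group, and the age of the mice, the promoter of the Tppp3 vector and the number of animals behind each library are not given in the labels. The question was how transcription in the injured retina differed with added Tppp3. The analysis rested on 3 of the 4 samples labelled as control AAV2 and all 3 labelled as Tppp3 AAV2.

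Control libraries held 10961443 to 16218074 counts and Tppp3 libraries 19961359 to 21843892, so the groups did not overlap in depth. With all libraries thinned to the shallowest, 34 of the 44 tested members had a positive fold change, as they did without thinning. Thinning evens out depth only. Any other difference in library handling that goes with depth cannot be told apart from the vector. Levels are given as CPM, counts scaled to a common library total after TMM adjustment for composition. The added gene was higher in every Tppp3 library: Tppp3 stood at 18.7, 22.2 and 28.0 CPM in control replicates 1, 2 and 3 and at 53.7, 36.5 and 41.8 CPM in Tppp3 replicates 1, 2 and 3 (log2 fold change 0.94 ± 0.20 SE, edgeR adjusted p = 0.639, DESeq2 Wald adjusted p = 2.15e-05). Markers of retinal neurons and glia were detected in every library. Markers of the pigment epithelium, a layer next to the retina, differed between libraries of the same group. The 13 pigment markers summed to 233, 61.7 and 59.8 CPM in control replicates 1, 2 and 3 and to 245, 73.9 and 235 CPM in Tppp3 replicates 1, 2 and 3. Of these, 11 were tested and all 11 were higher on average with Tppp3 AAV2, 0 past the threshold, and Slc45a2 was the only one at 0 in a library.

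Alpha and beta tubulin transcripts open with a short code that helps a cell to keep its tubulin supply in balance. When free dimers are plentiful, the factor Ttc5 recognises the first amino acids of a tubulin chain as it leaves the ribosome, and the transcript being translated is destroyed. The first 30 coding bases of tubulin genes of the 3 families are shown 5′ to 3′ on the coding strand, from the transcripts of GENCODE release M21 (mouse build GRCm38), with the first 4 codons in capitals.
Tuba1a: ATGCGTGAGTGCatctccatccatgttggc
Tuba1b: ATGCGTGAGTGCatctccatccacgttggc
Tuba4a: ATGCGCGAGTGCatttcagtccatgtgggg
Tubb5: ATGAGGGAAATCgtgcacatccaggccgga
Tubb4a: ATGCGGGAAATCgtgcacctgcaagccggt
Tubb2a: ATGCGCGAGATCgtgcacatccaggcgggc
Tubb3: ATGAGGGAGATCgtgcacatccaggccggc
Tubg1: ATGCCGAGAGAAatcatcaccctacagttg
Tubg2: ATGCCCCGGGAGatcatcaccctgcagctg

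The first 4 codons are the same in Tuba1a and Tuba1b, and after the start codon the gamma tubulins carry other codons at these positions. The likeness of the isotypes bears on their counts. Over 1353 coding bases Tuba1a and Tuba1b differed at 23, and their longest identical stretch was 281 bases, longer than the 150-base reads. Tubb2a and Tubb2b were 96.5% identical with a shared stretch of 551 bases, and Tubg1 and Tubg2 were 93.3% identical with a shared stretch of 164 bases. The labels do not say how the authors' counting divided reads from such stretches, so the split within each of these pairs is uncertain.

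The retina's tubulin transcripts were dominated by a few isotypes. Levels of different genes were compared as CPM per kb of transcript. Tuba1a, the main alpha tubulin of neurons, averaged 297 CPM per kb over the 6 libraries, and Tuba1b, which most cells make, averaged 283. Their ranges overlapped, at 275 to 319 for Tuba1a and 263 to 297 for Tuba1b. Tuba4a followed at 20.8, and Tuba8 and Tuba1c at 3.88 and 2.61 CPM per kb. Tuba3a, Tuba3b and Tubb1 had at most 6 counts in any library and were not tested.

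Among beta tubulins Tubb5, a widely made isotype, led with 138 CPM per kb, in a range of 123 to 147. Tubb2a came next at 77.5 with a range of 72.6 to 84.6, just above Tubb4b at 65.0 (58.7 to 72.3). Tubb4b overlapped Tubb4a, which averaged 60.8 (57.4 to 63.2). Tubb3, the neuronal isotype commonly used to stain retinal ganglion cells, averaged 27.7 CPM per kb, Tubb2b 12.1 and Tubb6 3.86. The gamma tubulins Tubg1 and Tubg2 averaged 16.6 and 12.7.

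The associated proteins were on the same scale as the tubulins. Map4, a microtubule-stabilising protein of many cell types, averaged 174 CPM per kb, Map1b, prominent in growing axons, 102, and Map2, the main such protein of dendrites, 95.2. Mapt, which encodes the axonal protein tau, stood at 34.9, and Dcx, a marker of young migrating neurons, at 0.941, the lowest of all tested members. Stmn1, whose product sequesters tubulin dimers, averaged 94.5, and Mapre3 and Mapre2, which encode proteins of growing microtubule ends, averaged 73.3 and 70.9 with overlapping ranges.

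**Figure D1:**
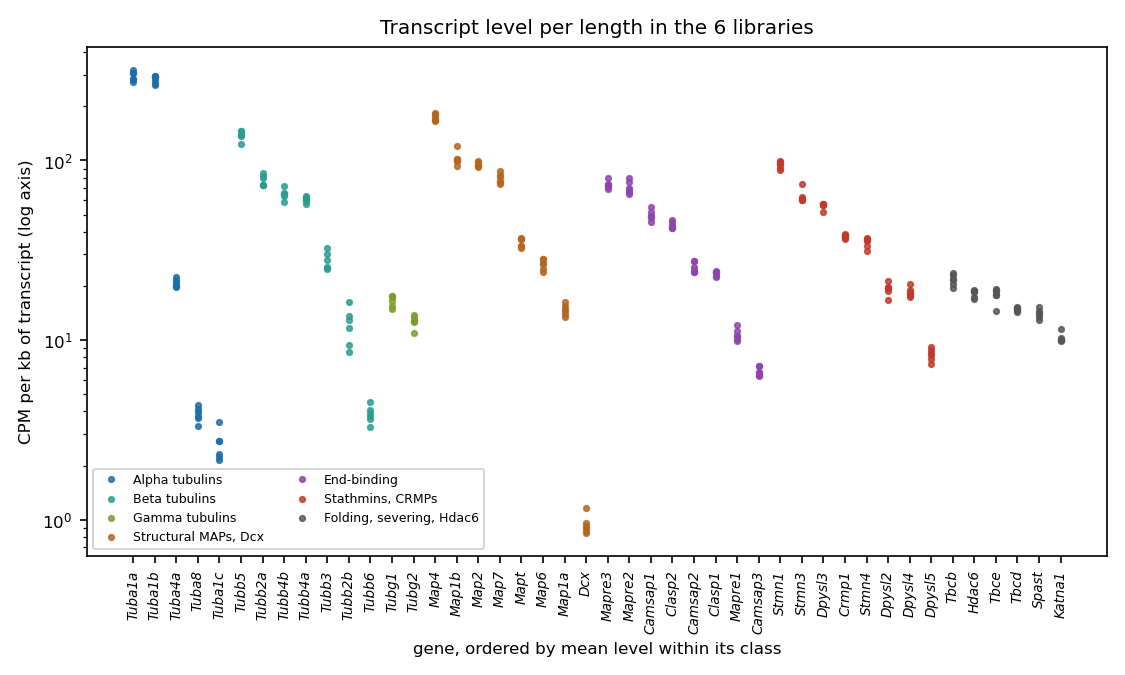
Level of each tested member in CPM per kb of transcript (log axis), with a point for each of the 6 libraries and genes ordered by mean level within their class (colour). Tuba1a and Tuba1b lie highest near 297 and 283, and Dcx lies lowest at 0.941.

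No tubulin or microtubule-associated gene differed between the vectors beyond the threshold. Of the 44 tested members, 0 passed an adjusted p under 0.05 in edgeR's quasi-likelihood test, where 0.0136% of all 14750 tested genes did (2 genes). DESeq2's Wald test also called 0 members, against 0.101% of all genes it tested. At an unadjusted p under 0.05 edgeR gave 6 members higher and 0 lower, beside 3.67% of all tested genes higher and 3.55% lower. Differences were small: log2 fold changes ran from -0.23 for Tubb6 to 0.21 for Dcx. Of the 44 members, 31 had a 95% confidence interval of the change that lay within 20% of no change in both directions. These intervals apply to whole retina, and a change confined to some of its cells was not tested. Every tested member had at least 4.24 CPM in each library, so the filter on low counts did not depend on the group.

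Small positive differences were common among the members. The log2 fold change was positive in 34 of 44, with a median of 0.056, and in 50.9% of all tested genes, whose median was 0.0030. The groups did not overlap for 10 members that were higher and 1 that was lower with Tppp3 AAV2. Among all tested genes the groups did not overlap in 13.9%, with 6.92% higher and 7.02% lower. Members of this set were chosen with earlier results of these data known, and the list was given no test of its own. The 47 members made up 0.814%, 0.832% and 0.819% of all counts in control replicates 1, 2 and 3, and 0.879%, 0.855% and 0.848% in Tppp3 replicates 1, 2 and 3, so that the groups did not overlap in this share.

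**Figure D2:**
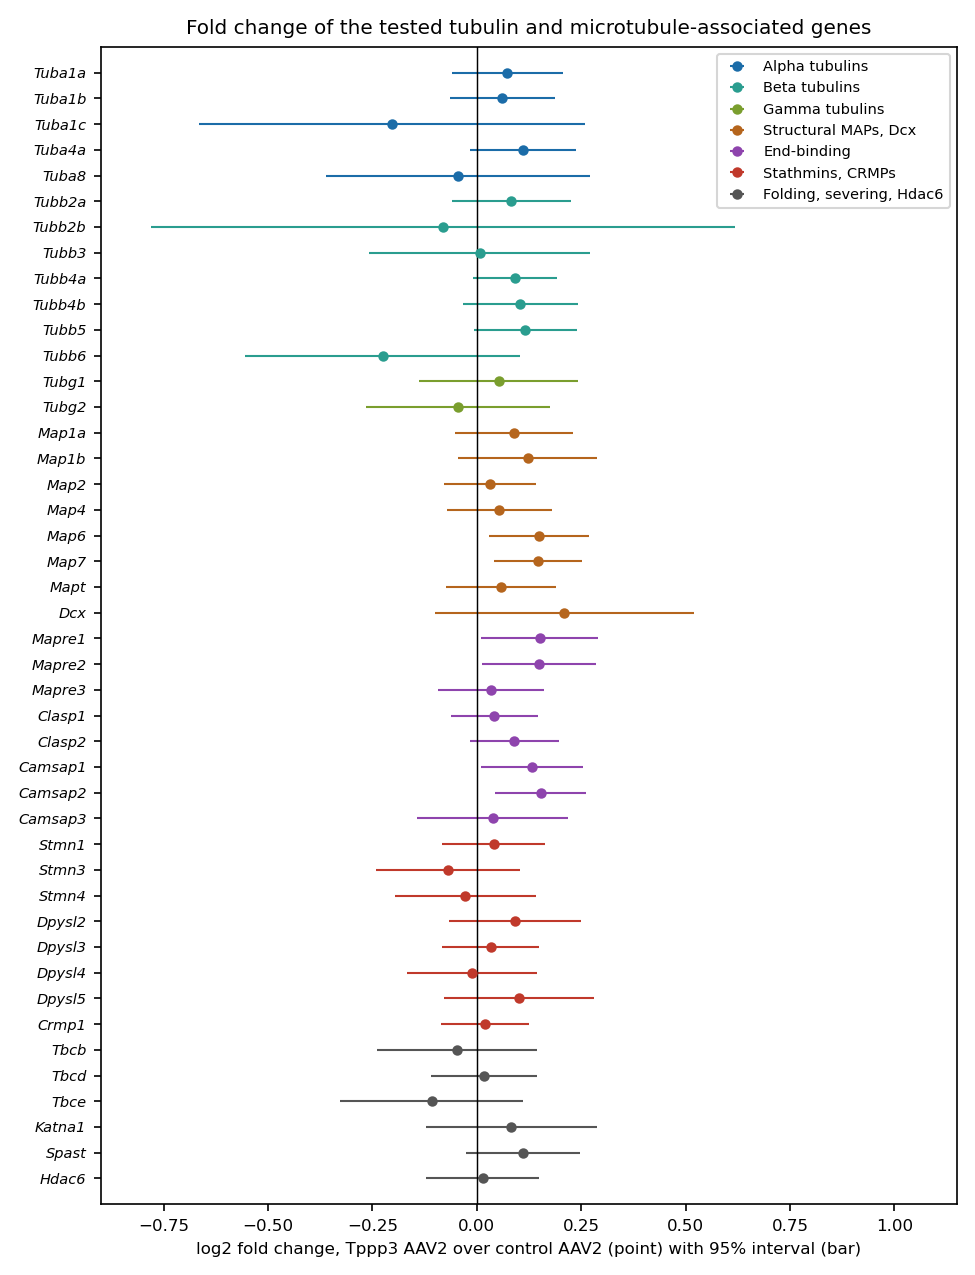
Log2 fold change of the 44 tested members, Tppp3 AAV2 over control AAV2 (point), with its 95% confidence interval (bar), coloured by class. The intervals of 6 members, Map6, Map7, Mapre1, Mapre2, Camsap1 and Camsap2, lie above 0, and Tubb2b has the widest.

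The most abundant alpha tubulins overlapped between the groups. Tuba1a stood at 495, 516 and 554 CPM in the controls and 556, 574 and 515 CPM with Tppp3 AAV2, with overlap. Its log2 fold change was 0.07 ± 0.060 (SE, edgeR adjusted p = 0.835), and the 95% interval of the change ran from -4.09% to 15.3%. Tuba1b stood at 459, 518 and 472 CPM in the controls and 511, 515 and 487 CPM with Tppp3 AAV2, again with overlap. Tuba4a was at 57.1, 57.6 and 55.9 CPM in the controls and 61.3, 63.5 and 59.5 CPM with the vector. Each Tppp3 library lay above each control library for Tuba4a (log2 fold change 0.11 ± 0.057 SE, edgeR adjusted p = 0.730). Tuba8 and Tuba1c had log2 fold changes of -0.04 and -0.20 with overlapping groups.

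Beta tubulins differed by similar amounts. Tubb5 stood at 326, 361 and 366 CPM in the controls and 367, 387 and 388 CPM with Tppp3 AAV2. Its highest control and lowest Tppp3 library were almost level, and the log2 fold change was 0.12 ± 0.056 (SE, edgeR adjusted p = 0.717, 95% interval of the change -0.527% to 18.1%). Tubb4a, a major beta tubulin of the brain, was at 132, 134 and 128 CPM in the controls and 140.1, 141 and 138 CPM with the vector. Its groups were apart, with a log2 fold change of 0.09 ± 0.046 (SE, edgeR adjusted p = 0.728). Tubb4b and Tubb2a had log2 fold changes of 0.10 and 0.08 with overlapping groups. Tubb6 was the only member that was lower in every Tppp3 library, at 7.16, 6.88 and 7.95 CPM in the controls and 6.35, 6.67 and 5.74 CPM with the vector (log2 fold change -0.23 ± 0.15 SE, edgeR adjusted p = 0.790).

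The neuronal isotypes Tubb3 and Tubb2b varied more between libraries than between vectors. Tubb3 stood at 46.3, 52.4 and 56.4 CPM in the controls and 47.7, 61.2 and 46.9 CPM with Tppp3 AAV2, so Tppp3 replicate 2 was the highest library while the other 2 Tppp3 libraries lay below 2 of the 3 controls. Its log2 fold change was 0.0069 ± 0.12 (SE, edgeR adjusted p = 0.993), and the 95% interval ran from -16.3% to 20.7%. Across the alternative settings the log2 fold change of Tubb3 ran from -0.13 without Tppp3 replicate 2 to 0.14 with the pigment adjustment. Tubb2b, an isotype of developing neurons, had the widest spread of all tested members. It stood at 20.6, 25.5 and 35.5 CPM in the controls and 29.9, 28.4 and 18.8 CPM with Tppp3 AAV2, with the highest library 1.89 times the lowest. Control replicate 1 and Tppp3 replicate 3, the lowest for Tubb2b, were also low for the 3 astrocyte markers, which summed to 44.9, 103 and 100.4 CPM in the controls and 77.6, 113 and 36.5 CPM with the vector. None of the 3 markers was at 0 in any library, but the weakest averaged only 0.655 CPM. The part of astrocytes in the Tubb2b values was not tested.

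Gamma tubulins overlapped between groups as well. Tubg1 stood at 27.0, 29.7 and 31.4 CPM in the controls and 27.9, 31.8 and 31.6 CPM with Tppp3 AAV2, and Tubg2 at 22.4, 23.7 and 22.1 against 19.1, 24.2 and 22.7 CPM. Both pairs of groups overlapped, with log2 fold changes of 0.05 ± 0.087 (SE, edgeR adjusted p = 0.929) and -0.04 ± 0.10 (SE, edgeR adjusted p = 0.952). Summed over each family, the mean for alpha tubulin was 1076 ± 45.4 CPM under the control vector and 1128 ± 48.8 under Tppp3 AAV2, beta tubulin 789.8 ± 42.3 and 840.3 ± 30.8, and gamma tubulin 52.0 ± 2.36 and 52.4 ± 4.79 (SD, n = 3 per group). For the 3 sums the exact permutation test, two-sided, returned p = 0.3, 0.2 and 0.8, with Benjamini-Hochberg adjusted values of 0.45, 0.45 and 0.8. With 3 against 3 libraries this exact test cannot go below p = 0.1.

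The shares of the main isotypes varied by a few percentage points between libraries. Shares were taken within a library from counts per kb, so that they do not depend on scaling between libraries. Tuba1a made up 48.8 ± 1.95% of alpha tubulin in the controls and 48.9 ± 0.628% with Tppp3 AAV2, and Tuba1b 46.7 ± 1.97% and 46.6 ± 0.621% (SD, n = 3 per group). Tubb5 made up 35.5 ± 0.481% and 36.3 ± 1.72% of beta tubulin, Tubb2a 20.2 ± 0.702% and 20.1 ± 1.00%, and Tubb3 7.39 ± 0.348% and 6.99 ± 0.771%. Tubb2b varied most for its size, at 2.68%, 3.08% and 4.17% in the controls and 3.50%, 3.13% and 2.25% with the vector, and its groups overlapped. Shares were tested for the 10 isotypes that averaged at least 1% of their family over the 6 libraries. Tubb6, the smallest of these, was the only isotype whose groups did not overlap. It stood at 1.16%, 1.03% and 1.16% in the controls and 0.924%, 0.913% and 0.853% with the vector. Tubb6 averaged 1.01% and passed the limit only through the controls, at a mean of 1.12% against 0.897% with Tppp3 AAV2. Its exact permutation p was 0.1, the smallest these groups allow, and its adjusted p over the 10 isotypes was 1.0. No conclusion was drawn from this test, since the limit favoured a higher control share.

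**Figure D3:**
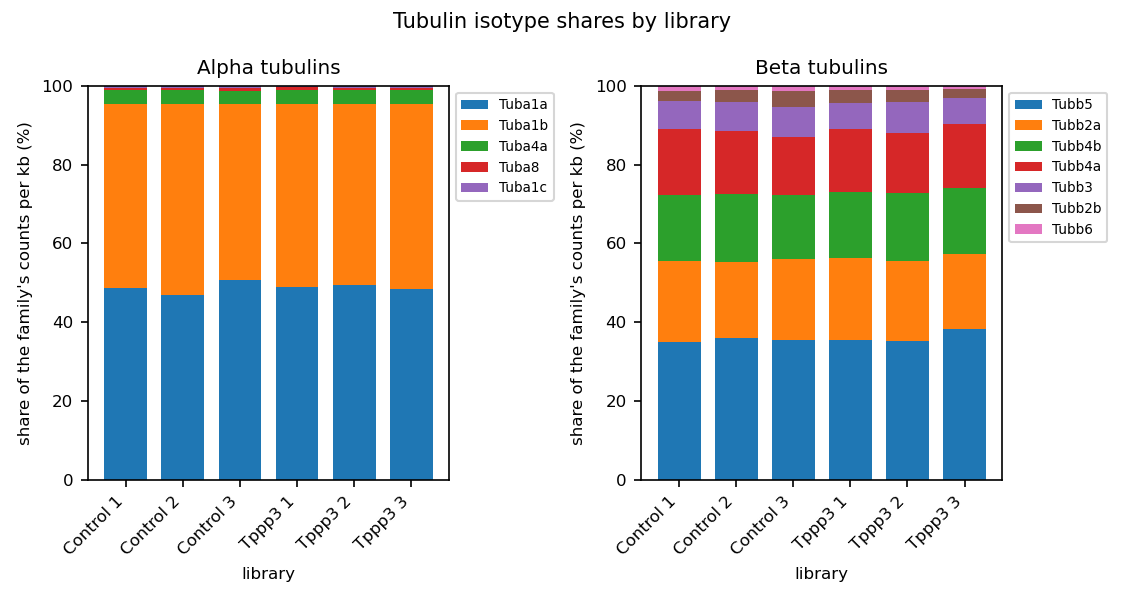
Share of each isotype in the alpha (left) and beta (right) tubulin counts per kb, in percent, with a stacked bar for each of the 6 libraries (isotypes under 0.3% left out). The main isotypes take similar parts of each bar, with Tuba1a and Tuba1b near 48.9% and 46.6% of alpha tubulin and Tubb5 near 35.9% of beta tubulin.

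Proteins that lie along the microtubule wall all had positive fold changes. All 8 members of this class, Dcx included, were positive, with a median log2 fold change of 0.11, and 0 passed the threshold over all genes. Without Tppp3 replicate 1 the median was 0.034, and after adjustment for the pigment markers it was 0.059 with 7 of 8 positive. Map7, which recruits the motor kinesin-1 to microtubules, stood at 324, 328 and 315 CPM in the controls and 354, 345 and 371 CPM with Tppp3 AAV2. The groups were apart, with a log2 fold change of 0.15 ± 0.048 (SE, unadjusted p = 0.0113 and edgeR adjusted p = 0.648). Map6, whose product protects microtubules against cold and drugs, stood at 117, 130.0 and 122 CPM in the controls and 139, 131 and 139.9 CPM with the vector. Control replicate 2 came close to Tppp3 replicate 2 without overlap, and the log2 fold change was 0.15 ± 0.054 (SE, unadjusted p = 0.0185 and edgeR adjusted p = 0.648).

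Several neuronal genes of this class rested on a single library or overlapped between the groups. Map1b stood at 1171, 1200.2 and 1105 CPM in the controls and 1418, 1168 and 1196 CPM with Tppp3 AAV2. A single library, Tppp3 replicate 1, was higher than the rest, and the log2 fold change of Map1b was 0.12 ± 0.076 (SE, edgeR adjusted p = 0.778) with it and 0.024 without it. Map2 stood at 589, 588 and 591 CPM in the controls and 618, 575 and 614 CPM with the vector, with a 95% interval of the change from -5.29% to 10.3%. Mapt stood at 192, 176 and 171 CPM against 194, 175 and 192 CPM, with overlapping groups and a log2 fold change of 0.06 ± 0.060 (SE, edgeR adjusted p = 0.875). Adjustment for the pigment markers brought it to -0.0092. Dcx stood at 7.87, 8.17 and 7.68 CPM in the controls and 10.5, 8.66 and 8.31 CPM with the vector, again highest in Tppp3 replicate 1. Its groups were apart, with a log2 fold change of 0.21 ± 0.14 (SE, edgeR adjusted p = 0.792) and of 0.095 without that library. Map4, the gene of highest level per kb in this class, stood at 1080.5, 1038 and 1009 CPM in the controls and 1103, 1022 and 1120.1 CPM with the vector. Map4 and Map1a overlapped between groups, with log2 fold changes of 0.05 and 0.09.

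Genes for proteins of microtubule ends gave 4 of the 6 members with an unadjusted p under 0.05. All 8 had positive fold changes, with a median log2 fold change of 0.11, and 0 passed over all genes. They were positive in 7 of 8 without Tppp3 replicate 1 or 3, after adjustment for the pigment markers and after correction for GC content and length. Camsap2 and Camsap1 encode proteins that hold the minus ends of microtubules that are free of the centrosome. Camsap2 stood at 191, 188 and 187 CPM in the controls and 214, 199 and 215 CPM with Tppp3 AAV2, with the groups apart and a log2 fold change of 0.15 ± 0.049 (SE, unadjusted p = 0.0100 and edgeR adjusted p = 0.648). Camsap1 stood at 380.1, 393 and 364 CPM in the controls and 439, 394 and 414 CPM with the vector. Its highest control was level with its lowest Tppp3 library, and the log2 fold change was 0.13 ± 0.055 (SE, unadjusted p = 0.0353 and edgeR adjusted p = 0.673).

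Mapre1, which encodes the plus-end tracker EB1, stood at 74.5, 72.7 and 77.5 CPM in the controls and 82.2, 89.5 and 77.6 CPM with Tppp3 AAV2. Its groups nearly touched, and the log2 fold change was 0.15 ± 0.064 (SE, unadjusted p = 0.0376 and edgeR adjusted p = 0.673). Its relative Mapre2 stood at 281, 262 and 269 CPM against 322, 274 and 304 CPM. The groups overlapped for Mapre2, with the same log2 fold change of 0.15 ± 0.062 (SE, unadjusted p = 0.0350 and edgeR adjusted p = 0.673). The neuronal relative Mapre3 stood at 143, 148 and 148 CPM against 150.1, 139 and 161 CPM, with overlap and a log2 fold change of 0.03. Clasp2, whose product helps shrinking microtubules to grow again, had groups apart and a log2 fold change of 0.09 (edgeR adjusted p = 0.745), while Clasp1 and Camsap3 overlapped at 0.04 each. Clasp1 was at -0.016 after the GC and length correction, and Camsap3 at -0.020 with the pigment adjustment.

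**Figure D4:**
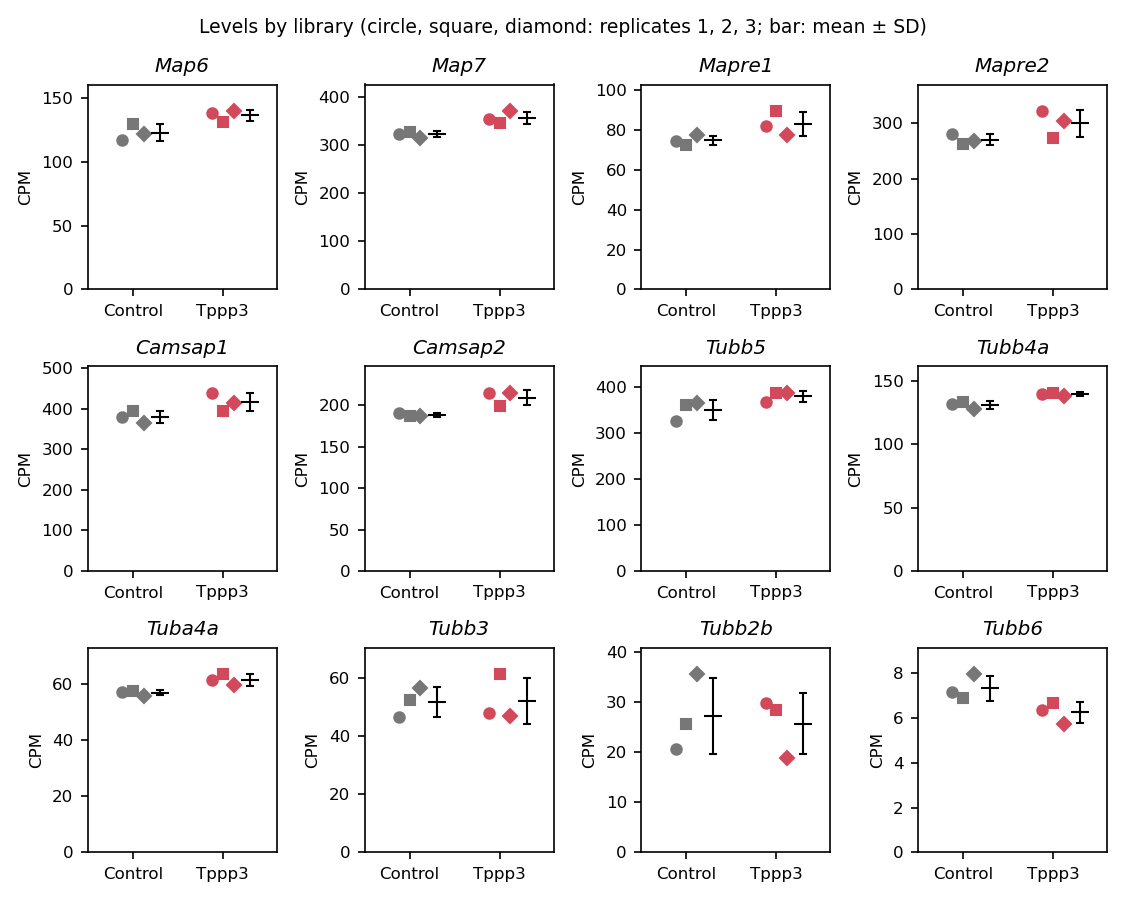
CPM of 12 members in each library, with circle, square and diamond for replicates 1, 2 and 3 of control (grey) and Tppp3 AAV2 (red), and the mean ± SD beside them. The first 6 panels are the members with an unadjusted p under 0.05, whose Tppp3 values overlap or lie just above the controls, and Tubb2b shows the widest spread within groups.

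The count of 6 such members changed with single libraries, and so did the share of all tested genes at an unadjusted p under 0.05, which was 7.23% with all libraries. Leaving out control replicate 1 gave 3 members beside 7.51% of all genes, and leaving out Tppp3 replicate 1 gave 2 beside 5.59%. Leaving out Tppp3 replicate 2 gave 8 members beside 8.82%, and leaving out Tppp3 replicate 3 gave 3 beside 5.15%. Leaving out control replicate 2 gave 4 members beside 5.25%, and leaving out control replicate 3 gave 4 beside 5.29%.

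Correction of each library for GC content and transcript length left the count of members at 6, beside 4.69% of all genes, but changed which genes made it up. They were then Map6, Map7 and 4 beta tubulins, Tubb5 and Tubb4a among them. The median log2 fold change of the 16 wall and end genes was 0.073 after this correction and 0.11 before, and that of the 14 tested tubulins 0.11 after and 0.057 before. The tubulin median was also above that of the wall and end genes with the pigment adjustment, at 0.12 against 0.076, and the medians were level without Tppp3 replicate 1, at 0.058 and 0.057. Without control replicate 1 the tubulin median was 0.0077, with 7 of 14 positive.

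Stathmins, which sequester tubulin dimers, and collapsin response mediator proteins, which take part in axon growth and guidance, showed no common direction. Of 8 members, 5 had positive and 3 negative fold changes, with a median of 0.026 and 0 past the threshold. After the GC and length correction all 8 were positive, with a median of 0.040. Stmn1 stood at 101, 101 and 94.2 CPM in the controls and 105, 96.2 and 103 CPM with Tppp3 AAV2. Stmn4, a neuronal stathmin, stood at 48.8, 45.7 and 49.9 CPM against 48.4, 42.6 and 50.6 CPM. Groups overlapped for both genes, with log2 fold changes of 0.04 and -0.03, the latter at 0.036 after the GC and length correction. Stmn3 was high in a single library, control replicate 3, at 83.9 CPM, while its other 5 libraries lay between 68.3 and 70.8 CPM.

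Dpysl2, the gene of CRMP2, which carries tubulin dimers to growing axon tips, stood at 88.8, 87.6 and 75.6 CPM in the controls and 95.8, 85.2 and 87.5 CPM with Tppp3 AAV2. Control replicate 3 was low, the groups overlapped and the log2 fold change was 0.09 ± 0.072 (SE, edgeR adjusted p = 0.822). Its relative Dpysl5 stood at 40.8, 46.0 and 38.0 CPM against 43.9, 42.6 and 47.5 CPM, with overlap and a log2 fold change of 0.10. Dpysl3, Dpysl4 and Crmp1 had log2 fold changes of 0.033, -0.012 and 0.019, and their 95% intervals stayed within -11.0% and 10.9%.

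Folding cofactors, severing enzymes and the deacetylase gene numbered 6 members, 4 of them positive, and their log2 fold changes had a median of 0.016. Spast, which encodes the severing enzyme spastin, stood at 66.3, 62.9 and 60.3 CPM in the controls and 65.1, 68.1 and 71.3 CPM with Tppp3 AAV2 (log2 fold change 0.11 ± 0.062 SE, edgeR adjusted p = 0.760). Tbce, a cofactor in the assembly of alpha and beta tubulin into dimers, stood at 35.4, 32.9 and 34.1 CPM against 26.7, 33.1 and 35.1 CPM. Its only low library was Tppp3 replicate 1, and its log2 fold change of -0.11 became -0.0053 without that library. Its partner Tbcb stood at 29.2, 31.0 and 33.6 CPM against 32.5, 30.5 and 27.7 CPM, with overlap and a log2 fold change of -0.05. Tbcd, Katna1, a katanin subunit, and Hdac6, which removes acetyl groups from alpha tubulin, had log2 fold changes of 0.017, 0.083 and 0.014 with overlapping groups.

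Tubulins and the other members had their highest values mostly in different libraries. Of the 14 tested tubulins, 8 were highest in Tppp3 replicate 2 and 8 were lowest in control replicate 1. Of the 30 other members, 10 were highest in Tppp3 replicate 1 and 10 in Tppp3 replicate 3, and 16 were lowest in control replicate 3. Control replicate 1 and Tppp3 replicate 2 were the 2 libraries with high Y-linked transcripts. Tppp3 replicate 2 had a lower pigment marker sum than the other Tppp3 libraries, as given above, and the parts of sex and of pigment cells in this pattern were not tested. With sex as a covariate 33 of 44 members remained positive with a median of 0.056, and after adjustment for the pigment markers 36 of 44 did, with a median of 0.071.

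**Figure D5:**
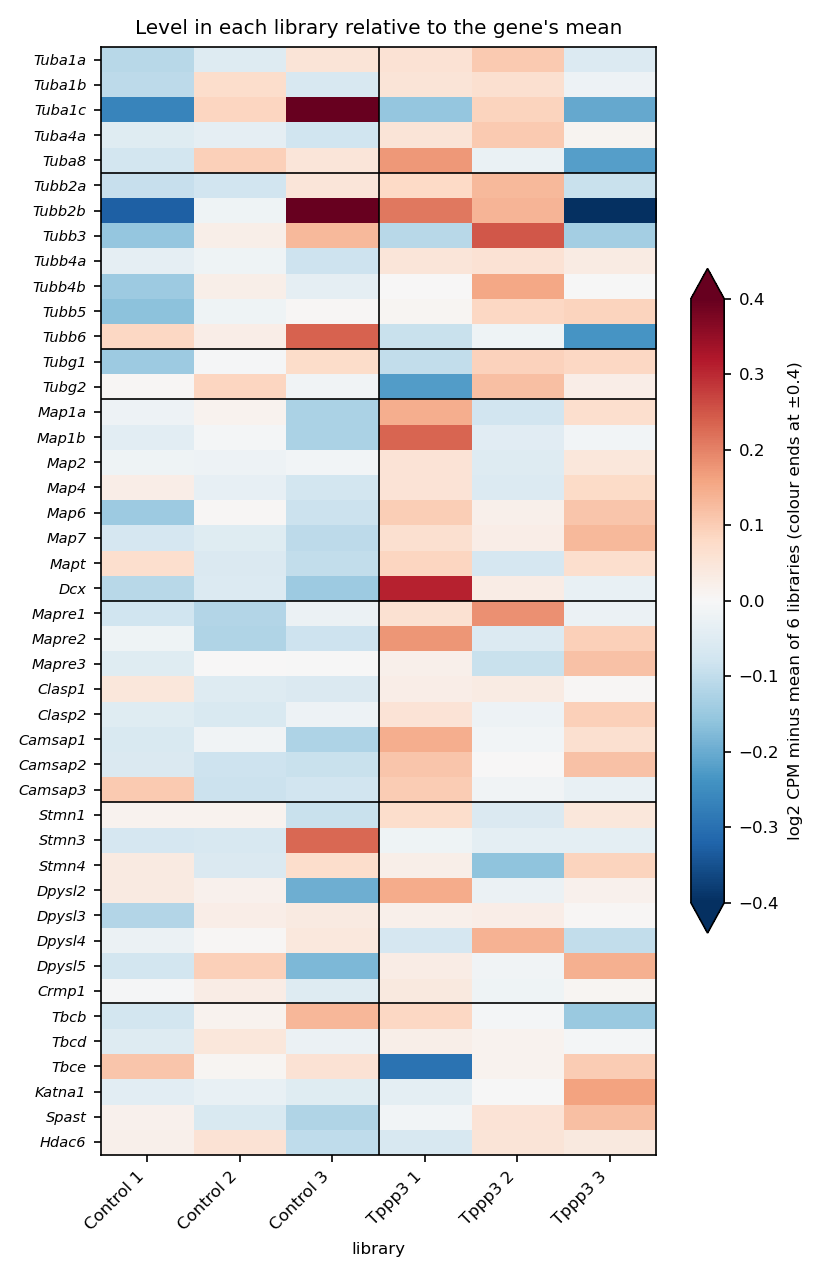
Log2 CPM of each tested member minus its mean over the 6 libraries (colour, red higher and blue lower), with libraries in columns, classes separated by horizontal lines and the groups by a vertical line. Tubulins are mostly blue in control replicate 1 and red in Tppp3 replicate 2, and the wall and end genes are mostly blue in control replicate 3 and red in Tppp3 replicates 1 and 3.

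Some neuronal markers differed between the groups by similar small amounts. The 7 amacrine cell markers summed to 1166 to 1209.8 CPM in the controls and 1217 to 1258 CPM with Tppp3 AAV2, and the 3 horizontal cell markers to 24.7 to 26.5 and 27.6 to 29.6 CPM, without overlap in either case. The 14 ganglion cell markers summed to 848 to 863 CPM in the controls and 798 to 920 CPM with the vector, which overlapped. Median log2 fold changes were 0.062, 0.13 and 0.0051 for these lists, with 6 of 7, 2 of 3 and 7 of 14 positive and 0 genes called. Bipolar cell markers were positive in 6 of 7 with a median of 0.086, and cone markers in 1 of 7 with a median of -0.064. The sums of both these lists overlapped between the groups, again with 0 called. All 8 rod markers were negative, with a median of -0.063, and all 6 Müller glia markers positive, with a median of 0.19, again with 0 called. The rod and Müller glia sums also overlapped between the groups. In whole retina, fewer cells of a type and less RNA per cell cannot be told apart, and the part of cell composition in the members' differences was not tested.

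Other genes of the microtubule pathway, listed alongside the members, were balanced in direction. Of 96 such genes that had counts listed, 94 were tested, 51 were positive and 43 negative with a median log2 fold change of 0.0055, and 0 passed over all genes in edgeR. At an unadjusted p under 0.05 there were 1 higher and 2 lower, or 3.19% of those tested, beside 7.23% of all tested genes. The groups did not overlap for 12, or 12.8%, beside 13.9% of all tested genes. Enzymes that modify tubulin after translation were positive in 9 of 19 with a median of -0.0071. Tpgs1, a subunit of the enzyme that adds glutamate chains to tubulin, stood at 25.5, 27.4 and 30.6 CPM in the controls and 22.7, 22.8 and 21.1 CPM with Tppp3 AAV2. Every Tppp3 library was below every control, with a log2 fold change of -0.33 ± 0.089 (SE, unadjusted p = 0.00378 and edgeR adjusted p = 0.639). Agbl3, a deglutamylase gene, had a log2 fold change of -0.19 with overlap.

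Folding and severing genes outside the set were positive in 10 of 23. Arl2, a small GTPase that works with the tubulin folding cofactors, stood at 29.3, 29.1 and 32.4 CPM in the controls and 25.9, 25.5 and 25.7 CPM with Tppp3 AAV2. The groups were well apart, with a log2 fold change of -0.23 ± 0.077 (SE, unadjusted p = 0.0110 and edgeR adjusted p = 0.648), while the chaperonin gene Tcp1 had a log2 fold change of 0.097, also with groups apart. Genes of the gamma tubulin ring and of branching were positive in 8 of 18. Tubgcp4, a ring subunit, stood at 44.0, 49.7 and 46.2 CPM in the controls and 54.3, 51.1 and 54.1 CPM with the vector. Its groups were apart, with a log2 fold change of 0.19 ± 0.067 (SE, unadjusted p = 0.0165 and edgeR adjusted p = 0.648), while its partner Mzt2 had a log2 fold change of -0.31 with overlap.

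Further plus-end genes were positive in 12 of 15 with a median log2 fold change of 0.042, and further microtubule-associated genes in 12 of 19 with a median of 0.024. Clip2 and Ckap5, a microtubule polymerase gene, had log2 fold changes of 0.13 and 0.10, and Mtus1 and Map7d1 of 0.11 each. Of these 4, Ckap5 and Mtus1 had groups that did not overlap. Tppp, the relative of Tppp3 made mainly by oligodendrocytes in the brain, stood at 117, 107 and 102 CPM in the controls and 116, 104 and 115 CPM with Tppp3 AAV2, with overlap and a log2 fold change of 0.04 (edgeR adjusted p = 0.926). Tppp2 had 0 counts in all 6 libraries, which allows up to 3 counts in each.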

How the data were processed

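Poly(A)-selected RNA of whole retina was sequenced as paired 150-base reads from libraries whose kit keeps no strand information, per the labels' protocols. The authors deposited unnormalized counts per gene symbol, per the file headers. GRCm39 (mm39) is the build in the submitters' processing notes. The names of the aligner, counter and annotation were not given in the sources used here. The labels' protocols mention a spike-in, and 0 rows carry its name. Columns were used where their name matched a sample title, which gave 6 libraries. The remaining column (1) matched no title and was not used, and control replicate 4 was not analysed here. Sample labels give 4 control and 3 Tppp3 samples, and the treatment protocol the reverse. Nothing states that libraries came from separate animals, so p-values measure the spread between these libraries. Pairs within a group differed by a chi-square per gene of 3.99 to 13.4, far above sampling noise.

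Genes were filtered by edgeR's filterByExpr (14750 tested), scaled by TMM and tested with edgeR's quasi-likelihood F test, robust and two-sided, with Benjamini-Hochberg adjustment over all tested genes calling genes under 0.05. Biological variation between libraries had a common coefficient of 11.9%. Standard errors came from the F statistic, and 95% intervals from its degrees of freedom. The procedure was tested on simulated counts, in which the altered genes had larger fold changes than any member. That simulation therefore does not show how well changes of the members' size are found. Transcript length and GC content were those of the longest protein-coding transcript in GENCODE M21, available for all 47 members. The versions used were Python 3.11.15, matplotlib 3.10.9, R 4.3.3, DESeq2 1.42.0, edgeR 4.0.16 and limma 3.58.1.

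Members and lists were chosen with earlier results of these data known. Values in every library were given for the 2 members of smallest p and the member of highest level per kb in each of 7 classes, for members with an unadjusted p under 0.05, and for 8 neuronal microtubule genes. Of each other pathway list the 2 genes of smallest p were named. Tuba1b, Tubb6 and Stmn3 were added after their values were seen. Alternatives were DESeq2's size factors and Wald test, limma's voom with sample weights, dropping the low-count filter or requiring a mean of 1 CPM, leaving out each library, a replicate block, covariates for sex and pigment epithelium, thinning to 10961443 counts, and GC and length offsets.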

Additional observations from a re-analysis of the deposited data

How the results depend on the processing

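Under 17 alternatives 0 members were called, and the median log2 fold change of the members stayed between 0.038 and 0.071. Same-numbered libraries had correlations of -0.029, 0.051 and -0.26, which gave no sign of pairing by number. With so few libraries these values cannot settle whether the samples were paired. With the replicate block 0 members were called, at a median of 0.056. Tppp3 passed the threshold only in DESeq2's Wald test (log2 fold change 0.94).

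The log2 fold changes of some genes changed sign under some settings. Most of these were near 0 in the edgeR test above, but Tuba1c was at -0.20 and Tubb2b at -0.081. With the pigment epithelium covariate the log2 fold changes were -0.0092 for Mapt, -0.035 for Tppp, -0.020 for Camsap3, 0.14 for Tubb2b, 0.0059 for Tubg2, 0.046 for Dpysl4 and 0.012 for Tuba1c. With the GC and length correction they were 0.036 for Stmn4, 0.014 for Tbcb, 0.011 for Tubg2, 0.0050 for Stmn3, 0.0079 for Dpysl4 and -0.016 for Clasp1, and with the replicate block added 0.029, 0.012, 0.0072, 0.0079, 0.0063 and -0.011. Tubb3 gave -0.039 with voom, -0.0011 with the sex covariate and -0.015 after thinning, which gave 0.012 for Dpysl4. The summed gamma tubulin log2 ratio was -0.00084 with library totals alone. The cause was not tested.

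Leaving out single libraries gave log2 fold changes of -0.018 to 0.085 for Mapre3, -0.0092 to 0.099 for Camsap3, -0.12 to 0.034 for Stmn3, -0.082 to 0.042 for Stmn4, -0.018 to 0.060 for Dpysl3, -0.090 to 0.031 for Dpysl4, -0.0019 to 0.039 for Crmp1, -0.11 to 0.010 for Tbcb, -0.0061 to 0.046 for Tbcd, -0.030 to 0.048 for Hdac6, -0.0011 to 0.094 for Tppp, -0.15 to 0.047 for Tuba8, -0.24 to 0.15 for Tubb2b, -0.13 to 0.074 for Tubb3, -0.0071 to 0.11 for Tubg1, -0.12 to 0.042 for Tubg2 and -0.039 to 0.084 for the gamma tubulin sum. Differences in isotype share, in percentage points, ran from -0.795 to 1.16 for Tuba1a, -1.13 to 0.845 for Tuba1b, -0.494 to 0.479 for Tubb2a, -0.669 to 0.0766 for Tubb2b, -0.490 to 0.567 for Tubb4a, -0.0563 to 0.524 for Tubb4b and -0.190 to 1.37 for Tubb5.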

Other observations

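A pair of genes for enzymes that alter the glutamate chains of tubulin varied widely within both groups, and was chosen after the values were seen. Agtpbp1, a deglutamylase gene whose loss causes photoreceptor degeneration in mice, stood at 275, 399 and 428 CPM in control replicates 1, 2 and 3 and at 320, 443 and 296 CPM in Tppp3 replicates 1, 2 and 3. The highest library was 1.61 times the lowest, and the log2 fold change was -0.058 ± 0.25 (SE, edgeR adjusted p = 0.981). Its 3 lowest libraries, control replicate 1 and Tppp3 replicates 1 and 3, had the high pigment marker sums of 233, 245 and 235 CPM. These 3 libraries were also the lowest for the microglia markers, which summed to 146, 162 and 136 CPM. They were the lowest for the 3 astrocyte markers as well, at 44.9, 77.6 and 36.5 CPM, the weakest marker averaging 0.655 CPM. The parts of pigment cells, microglia and astrocytes were not tested. Ttll11, a gene for an enzyme that lengthens glutamate chains, stood at 30.2, 47.6 and 47.9 CPM in the controls and 17.2, 33.8 and 36.2 CPM with Tppp3 AAV2. Its lowest library was Tppp3 replicate 1, the groups overlapped, and the log2 fold change was -0.53 ± 0.37 (SE, edgeR adjusted p = 0.815).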
